A study of Mus musculus with 9 samples.

Results

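In bulk RNA from adult male submandibular glands (SMGs), 10 genes were described that part the 9 libraries into a high and a low set: *Ptp4a2*, *Gpr157*, *Col4a3*, *Atp2c2*, *Mal2*, *Eci1*, *Med1*, *Zfp868*, *Gm45644* and *5430431A17Rik*. They are 10 of the 17562 rows of the normalised table, and their names came from a list chosen by this very pattern, on the same CPM values and with the balance of genotypes in view. Their levels, sets and differences between genotypes are therefore a description and carry no test. The glands came from 4 wildtype (WT) and 5 *Hs3st3a1;Hs3st3b1* double knockout (DKO) male mice on a C57BL/6 background, with 1 unstranded Nextera XT library per gland. The DKO allele carries a zinc finger nuclease deletion in exon 1 of *Hs3st3a1*, made in embryos heterozygous for a *Hs3st3b1* knockout with a LacZ cassette. Several founders with different deletions were kept, and the labels do not say from which founder a gland came or how old a mouse was. The labels give each gland a number and do not state that the glands came from separate animals, so p-values measure only the spread between these libraries. The libraries are called WT1 to WT4 and DKO1 to DKO5.

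The SMG is a major salivary gland in which acini secrete the saliva, granular ducts store growth factors and proteases, and myoepithelial cells contract around the acini. The 10 genes form no pathway of their own. They include a phosphatase and a receptor of signalling, a chain of basement membrane collagen, membrane and mitochondrial proteins of transport and fat breakdown, regulators of transcription in the nucleus, and a pair of loci with no known product. Some genes have a processed pseudogene, a copy of their message that was written back into the genome at another place, and short reads can match both.

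The WT libraries held 20653492 to 37870519 counts, with a median of 22301326, and the DKO libraries 17053747 to 34683690, with a median of 26682224. *Hs3st3a1* had 3 to 14 counts in the WT libraries and 0 in all 5 DKO libraries. *Hs3st3b1* had 67 to 216 counts in WT and 7 to 45 in DKO, and the neomycin cassette row had 0 in WT and 10 to 34 in DKO, so each library matched its label. All 4 acinar, 3 granular duct and 3 myoepithelial markers were in the table, and their levels differed between libraries. The summed granular duct markers (*Egf*, *Klk1b26* and *Ren1*) were at 24348 to 55736 CPM in WT and 3928 to 19578 CPM in DKO, and the myoepithelial markers (*Acta2*, *Cnn1* and *Krt14*) at 484 to 753 CPM in WT and 192 to 445 CPM in DKO. The summed acinar markers (*Mucl2*, *Lpo*, *Aqp5* and *Smgc*) were at 113839 to 175745 CPM in WT and 175487 to 287460 CPM in DKO. The sublingual markers *Muc19* and *Tff2* were not in it, and the third sublingual marker, *Galnt12*, was at 2.21 CPM or less. The summed parotid markers (*Bpifa2*, *Amy1* and *Cldn10*) stood at 8744 CPM in DKO1 and at 492 to 922 CPM in the other 8 libraries. In bulk RNA, fewer cells of a type and less RNA per cell cannot be told apart.

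For each gene the 9 values of log2(CPM + 0.1) were ordered, where CPM is the deposited count scaled to the library size with a TMM factor, and the largest step between neighbouring libraries was taken with at least 2 libraries on each side. With this rule 6 of the 10 genes had a step of at least 2 log2 units: *Ptp4a2*, *Col4a3*, *Zfp868*, *Gpr157*, *Med1* and *Gm45644*. Over all 13842 rows that passed the filter on low counts, 47 had such a step (0.34%), and the median step was 0.209. The other 4 genes, *Atp2c2*, *Eci1*, *Mal2* and *5430431A17Rik*, had a single library apart from the other 8. With 1 library allowed on a side, all 10 had a step of at least 2, against 99 of the 13842 rows (0.715%). With at least 2 libraries on each side, 8 of the 10 had a step of at least 1, as did 1.86% of the rows, and 6 had one of at least 3, as did 0.0795%. These counts only restate how the genes were chosen. *Gpr157* did not pass the filter on low counts, so 9 of the 10 genes are among the rows tested. By the first rule the smallest step of the 6 was 3.07 for *Ptp4a2*, while *Atp2c2*, *Eci1*, *5430431A17Rik* and *Mal2* stood below the limit with 1.41, 1.15, 0.78 and 0.25.

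**Figure D1:**
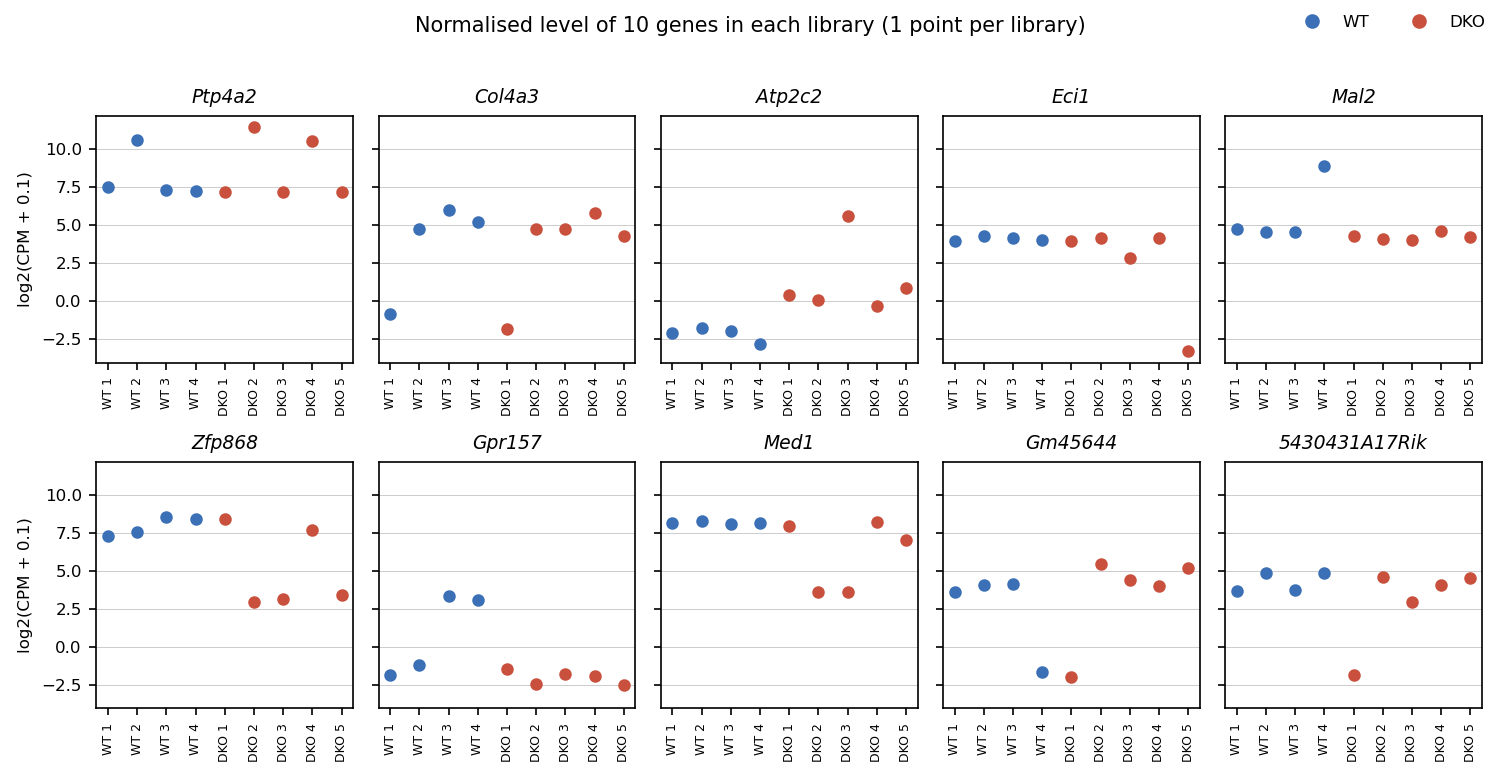
Level of each of the 10 genes in each library as log2(CPM + 0.1), with 1 point per library, WT in blue and DKO in red. *Ptp4a2*, *Col4a3*, *Zfp868*, *Gpr157*, *Med1* and *Gm45644* fall into an upper and a lower set, and *Atp2c2*, *Eci1*, *Mal2* and *5430431A17Rik* have 1 library far from the rest.

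*Ptp4a2* (ENSMUSG00000028788, chromosome 4, 129811219 to 129850003, plus strand, GRCm38) encodes a phosphatase of regenerating liver, a small prenylated enzyme of cell growth. Its level was 176, 1560, 155 and 152 CPM in WT1 to WT4, and 140.4, 2774, 145, 1478 and 144 CPM in DKO1 to DKO5. WT2, DKO2 and DKO4 formed the high set. The lowest of these 3 was 8.38 times the highest of the other 6, and the 6 lay within 0.33 log2 units of each other. Each genotype had libraries in both sets, and the fitted log2 difference of DKO over WT was 0.87 ± 1.04 (SE, 4 WT and 5 DKO libraries). It went from -0.10 to 2.54 when single libraries were left out.

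The processed pseudogene *Gm13422* (ENSMUSG00000084098, chromosome 2, 23235236 to 23235739, plus strand, GRCm38) had the same split with a step of 3.26. Its level was 1.97, 20.8, 1.91 and 1.67 CPM in WT1 to WT4, and 1.52, 36.4, 1.56, 19.7 and 1.37 CPM in DKO1 to DKO5. The *Gm13422* sequence matched the coding sequence of *Ptp4a2* at 487 of 501 aligned bases (97.2%), and 165 of the 4399 stretches of 31 bases in *Ptp4a2* transcripts occur in *Gm13422* too. Both sequences are shown over coding bases 95 to 214 because a read from within most of this stretch has the same letters in the gene and its copy, and the capital marks the single mismatch.
Ptp4a2: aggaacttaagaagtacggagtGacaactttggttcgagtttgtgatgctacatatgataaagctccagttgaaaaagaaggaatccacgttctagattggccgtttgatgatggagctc
Gm13422: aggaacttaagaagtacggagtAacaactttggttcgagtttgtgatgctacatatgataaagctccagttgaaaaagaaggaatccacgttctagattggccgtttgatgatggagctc
The *Ptp4a2* level was 75.0 to 76.2 times that of *Gm13422* in the 3 high libraries and 81.2 to 105 times in the other 6. How reads that match both loci were assigned is not given in the sources used here, so the *Gm13422* values are uncertain.

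*Ssr1*, on chromosome 13, had the split of *Ptp4a2* with high and low exchanged and a step of 2.39. This gene encodes a subunit of the translocon-associated protein complex, which assists the entry of secretory proteins into the endoplasmic reticulum. It was at 155, 146 and 194 CPM in WT2, DKO2 and DKO4 and at 1016 to 2006 CPM in the other 6 libraries. *Rabl2*, on chromosome 15, was likewise lower in those 3 libraries, at 1.26 to 1.81 CPM against 4.50 to 7.12 CPM. Near *Ptp4a2*, 1 of 22 tested genes within 500 kb had this split as its largest step with at least 2 libraries on each side. This was the matricellular protein gene *Tinagl1*, in the exchanged direction with a step of 0.25. With 1 library allowed on a side, 0 of the 22 had it, and *Tinagl1* had DKO2 alone apart with a step of 1.26. The nearest neighbours *Khdrbs1*, *Gm12966* and *Tmem39b* had steps of 0.10, 0.31 and 0.10 at other splits.

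**Figure D2:**
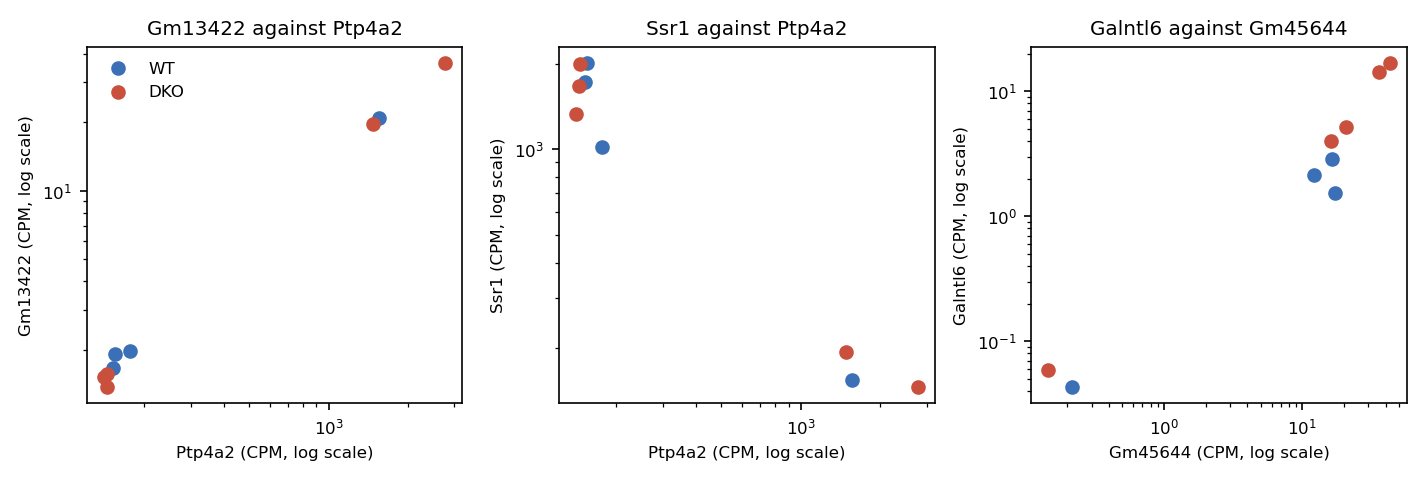
Levels in CPM on log axes, 1 point per library, WT in blue and DKO in red: *Gm13422* and *Ssr1* against *Ptp4a2*, and *Galntl6* against *Gm45644*. The 3 libraries with 1478 CPM of *Ptp4a2* or more have the highest *Gm13422* and the lowest *Ssr1*, and the 2 libraries with the least *Gm45644* have the least *Galntl6*.

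*Gpr157* (ENSMUSG00000047875, chromosome 4, 150087365 to 150105927, plus strand) encodes a G protein-coupled receptor. It was at 0.179, 0.343, 9.95 and 8.29 CPM in WT1 to WT4, and at 0.263, 0.0821, 0.184, 0.158 and 0.0722 CPM in DKO1 to DKO5. In counts, WT3 and WT4 had 449 and 193, and the other 7 libraries had 1 to 9. The high set thus held WT libraries alone, with a step of 4.24, and the lower of the pair was 24.2 times the highest of the rest. Since 2 WT libraries lay in the low set, the genotypes overlapped.

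WT3 and WT4 stood together in 1 gene of a short list of genes known to differ between inbred strains. *Wdfy1*, an adaptor of innate immune signalling, was lowest in those libraries, at 9.11 and 18.2 CPM against 34.8 to 41.8 CPM in the other 7. This step was 0.93, and with 1 library allowed on a side its largest step was 0.99 and set WT3 alone apart. *Nnt*, *Glo1* and *Alad*, the other 3 genes of the list, had largest steps of 0.09 to 0.15. *Eno1b*, an enolase copy, was high in WT3 and WT4 at 6.60 and 6.40 CPM, against 1.20 to 2.07 CPM elsewhere. Within 500 kb of *Gpr157*, 1 of 11 tested genes had its split with high and low exchanged. This gene, *Gm37795*, was at 4.81 and 4.04 CPM in WT3 and WT4 and at 8.17 to 22.9 CPM elsewhere, a step of 0.75. With 1 library allowed on a side, its largest step was 1.15 and set DKO2 apart, and 0 of the 11 genes had the split. The neighbouring hexose transporter gene *Slc2a5* and the hexose-6-phosphate dehydrogenase gene *H6pd* had steps of 0.48 and 0.26 at other splits. Whether the WT glands differ in their genetic background was not tested.

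*Col4a3* (ENSMUSG00000079465, chromosome 1, 82586921 to 82722059, plus strand) encodes the alpha 3 chain of collagen IV, the network collagen of basement membranes. Its level was 0.447, 25.9, 61.9 and 36.1 CPM in WT1 to WT4, and 0.175, 26.2, 25.9, 54.2 and 19.0 CPM in DKO1 to DKO5. WT1 and DKO1, with 10 and 6 counts, made up the low set. The step to the next library, DKO5, was 5.13 log2 units with 0.1 CPM added. Without it, the CPM of DKO5 was 42.5 times that of WT1. The log2 difference of DKO over WT was -0.32 ± 1.0 (SE), and it took both signs when single libraries were left out (-0.82 to 0.27).

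The alpha 4 chain gene *Col4a4* starts 71 bases away on the opposite strand, and these chains are known to assemble into 1 trimer. *Col4a4* was at 0.775 to 2.59 CPM over the 9 libraries, with 1.47 CPM in WT1 and 1.37 CPM in DKO1, so it did not part the libraries as *Col4a3* did. The annotated *C430014B12Rik* overlaps the *Col4a3* transcripts over 505 of 9993 stretches of 31 bases. It reached 0.223 CPM at most, and these unstranded libraries cannot place reads of the overlap on a strand. *Irs1*, the insulin receptor substrate gene 295.5 kb away, was the 1 of 5 tested neighbours with the same split. It was at 3.93 and 2.04 CPM in WT1 and DKO1 and at 8.13 to 30.0 CPM elsewhere, a step of 1.03.

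*Mucl1*, a secreted mucin-like gene on chromosome 15, had the *Col4a3* split with high and low exchanged, and the largest step of all rows tested (12.87). It was at 37205 CPM in WT1 and 99626 CPM in DKO1, and at 0.987 to 4.87 CPM in the other 7 libraries. Thus the glands with the least *Col4a3* RNA were the 2 with abundant *Mucl1* RNA, 1 of each genotype. *Mucl1* is known as an acinar product, while the sum of the 4 acinar markers had a largest step of 0.32 and did not part the libraries in this way.

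*Atp2c2* (ENSMUSG00000034112, chromosome 8, 119700009 to 119757717, plus strand) encodes a calcium and manganese pump of the secretory pathway. It was at 0.134, 0.191, 0.155 and 0.0429 CPM in WT1 to WT4, from 1 to 7 counts. In DKO1 to DKO5 it was at 1.23, 0.944, 46.6, 0.672 and 1.66 CPM. DKO3 was 28.1 times the next library, and the other 4 DKO libraries were still all above the WT libraries, the lowest being 3.53 times the highest WT. *Atp2c2* therefore goes against a split that is blind to genotype: its groups did not overlap, as in 339 of the 13842 rows with all DKO above all WT (2.45%). The log2 difference was 6.18 ± 1.66 (SE), and 3.00 ± 0.44 without DKO3. Of 14 tested genes within 500 kb, 4 also had DKO3 as the library apart, with steps of 0.53 or less, and so did 2332 of the 13842 rows tested (16.8%). Among them *Usp10*, a deubiquitinase gene, was highest in DKO3 at 76.6 CPM and at 40.1 to 52.9 CPM elsewhere, and *Meak7* was lowest there at 7.17 CPM.

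*Mal2* (ENSMUSG00000024479, chromosome 15, 54571192 to 54602847, plus strand) encodes a membrane protein of transcytosis in polarised epithelia. It was at 26.6, 22.8, 23.1 and 469 CPM in WT1 to WT4, and at 19.2, 16.5, 15.7, 24.3 and 18.6 CPM in DKO1 to DKO5. WT4 stood 17.6 times above the next library, and the other 8 lay within 0.76 log2 units. The log2 difference of DKO over WT was -2.84 ± 0.84 (SE) with WT4 and -0.35 ± 0.15 without it. The 2 tested genes within 500 kb, *Tnfrsf11b* and *Enpp2*, did not have WT4 apart, as 307 of the rows tested did (2.22%). The largest steps with WT4 alone high were in antibody gene segments, *Igkv4-91* with 4.14 and *Ighv1-66* with 3.27.

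*Eci1* (ENSMUSG00000024132, chromosome 17, 24426641 to 24439348, plus strand) encodes a mitochondrial isomerase that lets unsaturated fatty acids enter beta oxidation. It was at 15.5, 18.9, 17.5 and 16.1 CPM in WT1 to WT4, and at 15.3, 17.1, 6.85, 17.7 and 0 CPM in DKO1 to DKO5. DKO5 had no read at all, which places it at least 31.6-fold lower than DKO3, the next lowest library, against a floor of 3 counts (0.217 CPM). DKO3 in turn was 2.24 times below the lowest of the other 7, which spanned 0.30 log2 units. The log2 difference was -0.56 ± 0.63 (SE). Of 37 tested genes within 500 kb, 3 had DKO5 apart, as did 1210 of the 13842 rows tested (8.74%). The cyclin F gene *Ccnf* was highest there at 2.53 CPM against 0.368 to 1.07 CPM, and *Nthl1* and *Msrb1* had steps of 0.20 and 0.19. The nearest neighbours, *Rnps1* and *D330041H03Rik*, had steps of 0.15 and 0.30 at other splits. The next, the DNase gene *Dnase1l2* at 16.5 kb, was lowest in DKO3 and DKO5 as *Eci1* was, at 0.551 and 1.37 CPM. It was at 1.48 CPM in DKO2 and 2.17 to 2.79 CPM in the other 6 libraries, and its largest step, 1.18, set DKO3 apart.

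*Med1* (ENSMUSG00000018160, chromosome 11, 98152154 to 98193293, minus strand) encodes the Mediator subunit that nuclear receptors bind. It was at 276, 306, 272 and 283 CPM in WT1 to WT4, and at 247, 12.2, 12.3, 296 and 129.6 CPM in DKO1 to DKO5. DKO2 and DKO3 were nearly equal, within 0.02 log2 units, and DKO5 lay between them and the rest. The step from DKO5 down to DKO3 was 3.38 log2 units with 0.1 CPM added, and the CPM of DKO5 was 10.5 times that of DKO3. The log2 difference was -1.02 ± 0.76 (SE), with all low libraries among the DKO. The 2 nearest genes, *Cdk12* and *Fbxl20*, were at 2.79 to 6.52 CPM and 3.77 to 8.37 CPM with steps of 0.23 and 0.17 at other splits. The next, *Ppp1r1b*, which encodes an inhibitor of protein phosphatase 1, was at 216, 263 and 271 CPM in DKO2, DKO3 and DKO5 and at 57.5 to 134 CPM in the other 6. It was thus highest in the 3 libraries with the least *Med1*, with a largest step of 0.68. Within 500 kb, 2 of 21 tested genes had the split of *Med1*, or 1 (*Ikzf3*) with 1 library allowed on a side. *Ikzf3*, a lymphocyte transcription factor gene, was low in DKO2 and DKO3 with a step of 0.71, and *Rpl23*, a ribosomal protein gene, was high in them, at 47.8 and 64.2 CPM against 24.9 to 40.7 CPM. The summed lymphocyte markers were also lowest in DKO2 and DKO3, at 10.9 and 42.7 CPM against 50.8 to 189.5 CPM, and their part in these levels was not tested. On chromosome 6 the pseudogene *Gm5886* was high in DKO2 and DKO3, at 18.2 and 17.2 CPM against 0.155 to 2.45 CPM elsewhere.

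*Zfp868* (ENSMUSG00000060427, chromosome 8, 69610857 to 69625548, minus strand) encodes a zinc finger protein. It was at 153, 184, 363 and 340.2 CPM in WT1 to WT4, and at 334, 7.55, 8.69, 200.4 and 10.6 CPM in DKO1 to DKO5. DKO2, DKO3 and DKO5 were low and the 2 other DKO libraries lay within the WT range, with a ratio of 14.4 between the sets. The same 3 libraries had the lowest summed granular duct markers, at 10075, 3928 and 12913 CPM against 17025 CPM or more, and the highest summed acinar markers, at 224211, 287460 and 256635 CPM against 199426 CPM or less. Neither sum had its largest step there, and the part of these cell types in the level of *Zfp868* and of the genes that share its split was not tested. These are the 3 libraries in which *Med1* was lowest too, but *Med1* in DKO5 was on the upper side of its step. The log2 difference was -1.21 ± 0.99 (SE). The zinc finger gene *Zfp869*, 85.2 kb away, shares 207 of 2860 stretches of 31 bases with *Zfp868*. It was at 7.58 to 11.7 CPM in all libraries, and *Zfp964* and *Zfp963* nearby had steps of 0.23 and 0.10.

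The split of *Zfp868* also occurred in some other genes of its chromosome. Besides *Zfp868*, 11 tested genes had this split with a step of at least 1, and 5 of these 11 lay on chromosome 8, which held 758 of the 13842 rows tested (5.48%). They were *AI429214* (2.45), *Zdhhc2* (1.28), *Lzts1* (1.27), *Mau2* (1.25) and *Upf1* (1.05), all low in the same 3 libraries. *Mau2*, which encodes a cohesin loading factor, was at 38.1, 37.6 and 30.8 CPM in DKO2, DKO3 and DKO5 and at 90.9 to 203 CPM in the other 6. *Lzts1*, a leucine zipper gene, was at 12.8, 7.26 and 6.71 CPM in those 3 and at 31.1 to 111 CPM in the rest. Within 500 kb, 3 of 18 tested genes had the split: *Mau2*, *Lzts1* and, in the exchanged direction, *Atp13a1* with 0.33. With 1 library allowed on a side, *Mau2* and *Lzts1* alone had it. Of the other 6 genes with a step of at least 1, *Crisp1* was low in the 3 libraries, and *Psmc3ip*, *Mup5*, *Scgb2b24*, *A630073D07Rik* and *Scgb2b26* were high in them. Whether a chromosome segment differs between these glands was not tested.

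**Figure D3:**
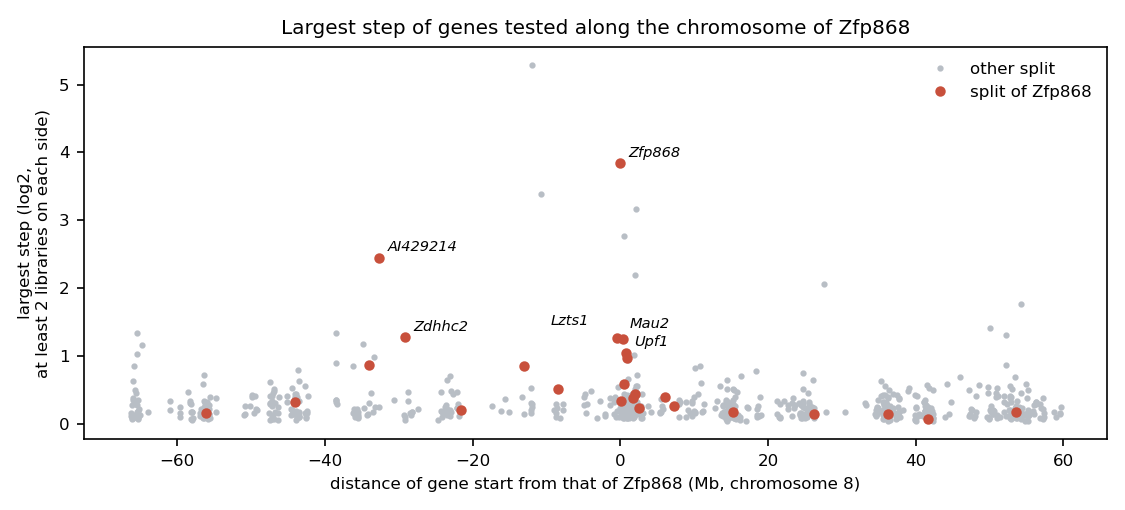
Largest step (log2, at least 2 libraries on each side) of each tested gene on chromosome 8 against the distance of its start from that of *Zfp868* in Mb. Red points have the split of *Zfp868* in either direction, and the 5 named genes besides *Zfp868* with a step of at least 1 lie on both sides of it.

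*Gm45644* (ENSMUSG00000109636, chromosome 8, 57696723 to 57699462, plus strand) is annotated as TEC, a locus whose transcript awaits experimental proof, with no known product. It was at 12.2, 16.3, 17.3 and 0.215 CPM in WT1 to WT4, and at 0.146, 42.9, 20.6, 16.2 and 35.7 CPM in DKO1 to DKO5. WT4 and DKO1, with 5 counts each, made up the low set, and the lowest of the other 7 was 57.0 times the higher of the pair. The step of 5.29 was exceeded by 1 tested row, and the log2 difference between genotypes was 0.99 ± 0.98 (SE). The neighbouring *Galntl6*, from 57774052 to 58912640 on the minus strand, encodes a polypeptide N-acetylgalactosaminyltransferase-like protein and had the same split with a step of 3.38. It was at 0.0429 and 0.0584 CPM in WT4 and DKO1 and at 1.55 to 16.8 CPM in the others, highest in DKO2 and DKO5 as *Gm45644* was. Its start lies beyond 500 kb, and none of the 6 tested genes within that distance had the split. The adjacent *Galnt7* was at 22.3 to 43.4 CPM with a step of 0.25.

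*5430431A17Rik* (ENSMUSG00000108322, chromosome 7, 44473538 to 44486138, plus strand) is annotated as a long intergenic noncoding RNA. It was at 12.8, 29.3, 13.3 and 28.6 CPM in WT1 to WT4, and at 0.175, 23.4, 7.45, 16.6 and 23.2 CPM in DKO1 to DKO5. DKO1, with 6 counts, was 42.5 times below the next library, DKO3, and the log2 difference was -0.58 ± 0.73 (SE). DKO1 is the library with high parotid markers: *Bpifa2* was at 7408 CPM there and at 4.42 to 79.0 CPM elsewhere, and *Amy1* at 636 CPM against 7.12 to 25.5 CPM. Their part in the level of *5430431A17Rik* was not tested. Of 45 tested genes within 500 kb, 2 had DKO1 apart (4.23% of all rows did), the deubiquitinase gene *Josd2* with a step of 0.63 and *Emc10* with 0.08.

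No 2 of the 10 genes shared a split. Of the 45 pairs, 0 had the same high set and 0 had exchanged sets, under either rule for the smallest set, so the 10 genes gave 10 distinct splits. Over all rows tested, the split of *Gm45644* was the largest step in 0.347%, that of *Ptp4a2* in 0.614%, that of *Gpr157* in 0.766%, that of *Col4a3* in 1.25%, that of *Zfp868* in 1.66% and that of *Med1* in 1.88%, in either direction. The libraries that stood apart were of both genotypes for 3 genes (*Ptp4a2*, *Col4a3* and *Gm45644*). They were DKO libraries alone for 5 genes (*Zfp868*, *Med1*, *Atp2c2*, *Eci1* and *5430431A17Rik*) and WT libraries alone for *Gpr157* and *Mal2*. Each library stood apart for at least 1 gene: WT1, WT2, WT3 and DKO4 for 1 each, DKO5 for 2, and WT4, DKO1, DKO2 and DKO3 for 3 each.

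**Figure D4:**
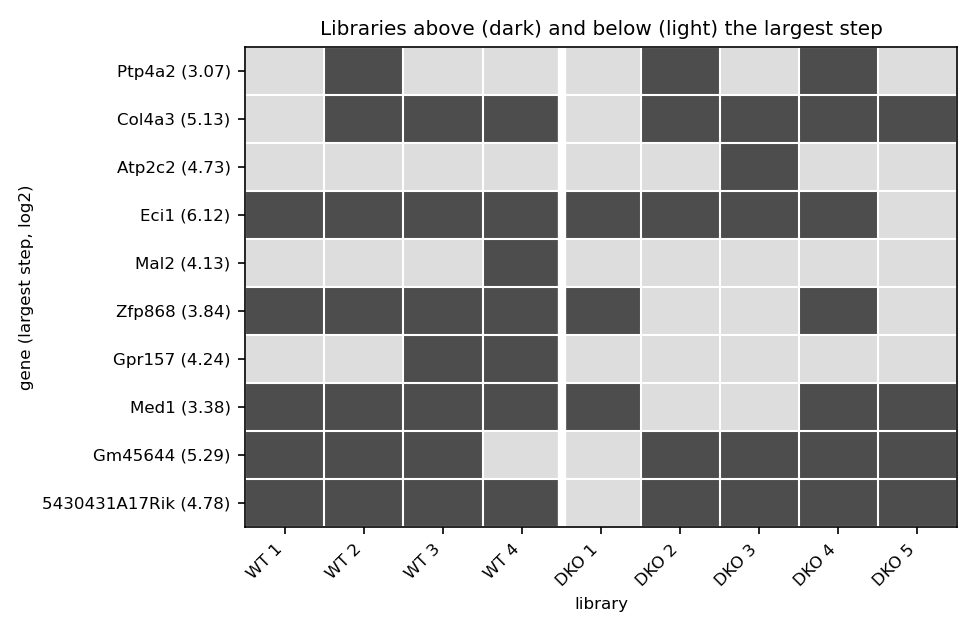
Libraries above (dark) and below (light) the largest step of each of the 10 genes, with at least 1 library on each side and the size of the step (log2) beside the name. No pair of rows is alike or the reverse of another, and the libraries in the smaller set are of both genotypes for *Ptp4a2*, *Col4a3* and *Gm45644* alone.

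In the comparison of DKO with WT by edgeR (quasi-likelihood F test, p adjusted by Benjamini-Hochberg across the 13842 rows), 0 of the 9 tested genes passed an adjusted p of 0.05, where 87 of all rows did (0.629%). With DESeq2, 0 of the 9 passed and 617 of all rows did (4.46%). Without a filter on low counts *Atp2c2*, *Mal2* and *Gpr157* passed the edgeR test, where 347 of all 26391 rows did. *Atp2c2* also passed when DKO4 was left out, where 441 of 13795 rows did. Genotype balance was part of how the genes were chosen, so nothing is read from these counts.

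**Figure D5:**
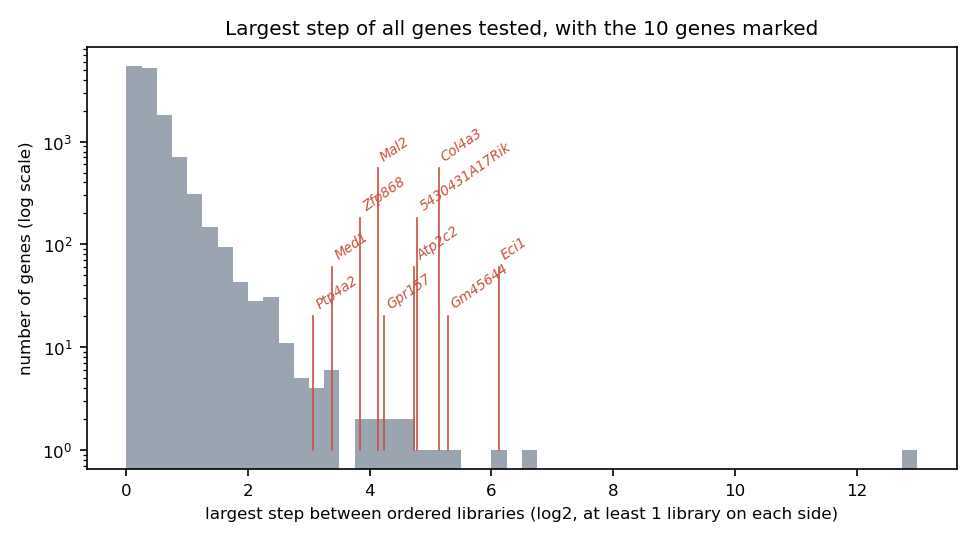
Number of genes (log scale) by the largest step between ordered libraries in log2 units, with at least 1 library on each side, over the 13842 rows tested. Red lines mark the 10 genes, from 3.07 (*Ptp4a2*) to 6.12 (*Eci1*), and the bar farthest right is *Mucl1*. *Gpr157* is marked but is not among the rows tested.

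Genes that work with the members were taken from lists of 62 genes, of which 60 were tested. By the edgeR test 0 of the 60 passed (0.629% of all rows did), and 13 had an unadjusted p under 0.05, where 14.5% of all rows did. None of the 60 had a step of 2 or more under either rule, and their median step was 0.193 against 0.209 over all rows. Of the other phosphatases of regenerating liver, *Ptp4a3* was 0.64 ± 0.17 (SE, log2) higher in DKO with an edgeR adjusted p of 0.0862 and a DESeq2 adjusted p of 0.0133, the single gene of the lists that DESeq2 called. *Ptp4a1* was at 16.6 to 88.4 CPM, with a log2 difference of 0.48 ± 0.39.

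Among the 5 other collagen IV chains the log2 difference ran from -0.62 ± 0.21 (*Col4a1*) to 0.26 ± 0.31 (*Col4a4*). The 4 calcium pump genes ran from 0.12 (*Atp2a3*, the pump of the endoplasmic reticulum) to 0.37 (*Tmem165*, a manganese and calcium transporter of the Golgi). *Atp2c1*, the close relative of *Atp2c2*, was at 20.6 to 32.5 CPM in all libraries. In beta oxidation, 11 of 12 genes were tested, from -0.44 ± 0.15 for *Hadh* to 0.36 ± 0.15 for *Acaa2*. The 9 genes of the MAL family ran from -0.45 (*Cmtm6*) to 0.16 (*Mal*). Of 30 other Mediator genes, 29 were tested, from -0.48 ± 0.16 (*Med11*) to 0.48 ± 0.19 (*Med14*), and their largest step was 0.47.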

How the data were processed

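The authors sequenced 9 unstranded libraries on a HiSeq2500, and the submitters' processing notes name STAR 2.5.2a, DESeq2, edgeR and limma and the builds GRCm38, mm10 and GRCh38, without roles. The authors deposited raw counts (48733 rows), the same counts after a filter (17562 rows) and a signal table of these as TMM-normalised CPM, of which all 158058 values gave whole reads (tolerance 0.01). Here raw counts were fitted with edgeR 4.0.16 (TMM, filterByExpr with minimum count 10 and minimum total 15, quasi-likelihood test) and DESeq2 1.42.0 in R 4.3.3, after the edgeR script was tested on simulated data. Standard errors of the edgeR log2 fold change were derived as its absolute value divided by the square root of the quasi-likelihood F statistic. Steps used the deposited CPM plus 0.1. Positions and transcript matches came from GENCODE M21 (GRCm38). The members and lists were chosen with earlier results of these data known. Named are the members, their list genes with extreme fold changes, up to 3 nearest tested neighbours within 500 kb and up to 3 rows with the same split and the largest steps; *Upf1*, *Zdhhc2* and other rows with the split of *Zfp868* were added after their values were seen. Of the marker genes, 1 is not reported here. The female libraries were not analysed here.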

Additional observations from a re-analysis of the deposited data

Results flagged for a closer look

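Dixon's criterion, applied to log2(CPM + 0.1) of the 10 genes within the 4 WT and within the 5 DKO libraries (20 groups), marked 8 values as far from the rest of their group. Chance marks about 1 in 20 groups, but these genes were chosen for such values, so the number says nothing beyond that choice. Among WT, *Ptp4a2* in WT2 (1560 CPM) and *Mal2* in WT4 (469 CPM) were high, and *Gm45644* in WT4 (0.215 CPM) was low. Among DKO, *Atp2c2* in DKO3 (46.6 CPM) was high. *Col4a3* in DKO1 (0.175 CPM), *Gm45644* in DKO1 (0.146 CPM), *5430431A17Rik* in DKO1 (0.175 CPM) and *Eci1* in DKO5 (0 CPM) were low. The low values of *Col4a3* and *Gm45644* in DKO1 each had a counterpart in a WT library, at 0.447 CPM of *Col4a3* in WT1 and 0.215 CPM of *Gm45644* in WT4. The cause was not tested for any of them.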

How the results depend on the processing

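The number of genes called between genotypes was 87, and was 87 with DESeq2 size factors and on the filtered table, 617 with DESeq2, 347 with no filter, 5 with upper quartile factors and 0 with the replicate block. It ran from 0 to 441 when single libraries were left out. The members called were 0, 3 with no filter, and 0 to 1 when single libraries were left out. The list genes called went from 0 to 1 with DESeq2. The replicate numbers of the labels did not pair the libraries (correlations of 0.014 to 0.298 over 4 numbers). The members with a step of at least 2 were 6, 10 with at least 1 library on each side and 2 with at least 3 (*Ptp4a2* and *Zfp868*). The share of all rows was 0.34%, and 0.152% and 0.116% with pseudocounts of 0.5 and 1 CPM. It was 0.715% with at least 1 library on each side, 0.231% with at least 3, and 1.86% and 0.0795% with thresholds of 1 and 3. With pseudocounts of 0.5 and 1 CPM, the step of *Col4a3* fell from 5.13 to 4.36 and 3.79. That of *Gpr157* fell from 4.24 to 3.38 and 2.79, and that of *Gm45644* from 5.29 to 4.16 and 3.45. The step of *Atp2c2* fell from 1.41 to 0.76 and 0.49. With either pseudocount, 6 members still had a step of at least 2. The members' neighbours sharing a split numbered 10 within 500 kb, 3 within 250 kb and 16 within 1000 kb when at least 2 libraries were asked on each side. When single libraries were left out, 4 to 6 members had a step of at least 2, 0.325% to 0.412% of all rows did, and the members gave 8 to 10 distinct splits. A pair of libraries sets the step of *Col4a3*, *Gpr157*, *Med1* and *Gm45644*. Without 1 of that pair the other stands alone, which the rule of at least 2 libraries on each side does not count. The step then fell to as little as 0.59, 0.50, 0.93 and 0.79, a fall that the rule fixes in advance. The smaller sets of *Ptp4a2* and *Zfp868* hold 3 libraries, and their steps (3.07 to 3.26 and 3.84 to 4.13) did not depend on 1 library. Levels near 0.1 CPM rest on 1 to 10 counts. The causes of the other changes were not tested.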

Other observations

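Of the 47 rows with a step of at least 2, 5 were members. Of the other 42, 14 were immunoglobulin segments, 6 lay on chromosome 8 and 6 had a larger step than *Ptp4a2*. On chromosome 8, *Hapln4* (2.77), *Tmem221* (2.19) and *Gm35572* (3.17) shared a split that no member had. *Hapln4*, a hyaluronan and proteoglycan link protein gene, had 0 CPM in WT3, WT4 and DKO1 and 0.581 to 5.61 CPM in the other 6 libraries. *Gm35572* was likewise listed at 0 CPM in those 3 and at 0.800 to 2.82 CPM elsewhere.

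A further 3 rows, of known clock genes, were named after their values were seen, and no list of clock genes was examined. *Arntl*, the activator at the head of the circadian clock, was at 0.908, 2.62 and 1.01 CPM in WT3, DKO3 and DKO5 and at 15.4 to 35.3 CPM in the other 6 libraries. Its relative *Npas2* was at 0.288 to 0.551 CPM in the same 3 libraries and at 3.96 to 8.49 CPM in the rest. *Dbp*, a clock output gene, went the other way, with 6.96, 6.20 and 11.8 CPM in the 3 libraries and 0.204 to 0.903 CPM elsewhere. *Ifi202b*, with a step of 2.28, had the high set of *Arntl* and *Npas2* too, so the split was not confined to the 3 rows picked. Each side held both genotypes, none of the 10 members had this split, and the labels give no time of collection.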
